A study of Mus musculus with 6 samples.

Results

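The nuclear-encoded subunits of the mitochondrial respiratory chain and ATP synthase were examined in the left ventricles of cardiomyocyte-specific NCoR1 knockout (CMNKO) mice and littermate control (LC) mice. Members were taken by symbol from the table of all genes (symbols beginning with Nduf and a letter a, b, c, s or v and a digit, Sdha to Sdhd, Uqcr, Cox4 to Cox8, or Atp5), which gave 84 of 17121 rows. Of these 84, 78 are subunits, with 35 in complex I, 4 in complex II, 8 in complex III, 16 in complex IV and 15 in complex V. The other 6 carry a matching name but are not subunits: Ndufa4l2, Cox7a2l, Atp5s, Atp5sl and the pseudogenes Atp5l-ps1 and Atp5l2-ps. Ndufa4 was counted with complex IV, since the deposited gene description calls it a cytochrome c oxidase subunit. All 84 passed the filter on low counts and were among the 13040 genes tested.

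CMNKO mice came from a cross of mice carrying floxed NCoR1 with αMHC-Cre mice, and LC mice were their littermates without the knockout. All mice were on a C57BL/6 background (C57BL6/J in the methods of the study) and 2 months old, and 3 ventricles of each genotype were sequenced, 1 library per mouse (CMNKO 16, 17 and 18, and LC 15, 25 and 26). αMHC-Cre acts in cardiomyocytes, so the other cells of the ventricle keep NCoR1, and the exact alleles of the LC mice were not stated. NCoR1 is a corepressor that nuclear receptors and other transcription factors recruit to hold their target genes down.

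Complexes I and II pass electrons from NADH and succinate to ubiquinone, complex III passes them on to cytochrome c, and complex IV hands them to oxygen. Complexes I, III and IV pump protons out of the matrix, and complex V, the ATP synthase, makes ATP as protons flow back. Most subunits are encoded in the nucleus and the rest in mitochondrial DNA, and several complex IV subunits exist as a heart and skeletal muscle isoform and a ubiquitous isoform, so that ventricular muscle, which lives on oxidative phosphorylation, makes these transcripts in large amounts.

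Libraries held 6319488 to 8752609 counts assigned to genes. Ncor1 itself, the targeted gene, was at 50.5, 51.3 and 42.4 CPM (counts relative to a library total scaled by TMM factors) in CMNKO 16, 17 and 18, against 110.6, 102.0 and 90.7 CPM in LC 15, 25 and 26, a log2 fold change of -1.07 ± 0.13 (SE, n = 3 each, adjusted p = 0.00845, edgeR). By the library numbers in the labels, LC 15 is consecutive with the 3 CMNKO libraries. LC 25 and LC 26 have later numbers, a block that holds only LC mice and that the labels do not call a batch. These blocks of numbers are the library series named below. Mitochondrially encoded transcripts took 26.3% to 27.9% of all counts in CMNKO mice and 26.3% in LC 15, against 36.1% in LC 25 and 32.8% in LC 26. The 9 cardiomyocyte markers (Myh6, Tnnt2, Mb and others) summed to 79659 to 86840 CPM in CMNKO mice and 76570 to 90679 CPM in LC mice, but single markers differed within this sum. Of the 9, 6 had a log2 fold change below 0 and 3 above, and 0 were called (edgeR). Every CMNKO mouse lay below every LC mouse for Tnnt2 (log2 fold change -0.58), Tnni3 (-0.41) and Pln (-0.41), and above for Ryr2 (0.20), while Myh6 (0.32) and Myl3 (0.23) overlapped. The summed markers of 3 other cell types did not overlap between genotypes. The 6 endothelial markers were at 530.3 to 639.0 CPM in CMNKO mice, against 477.5, 360.9 and 344.5 CPM in LC 15, 25 and 26. Their median log2 fold change was 0.49, and 0.28 with the library series as a term. The 6 smooth muscle and pericyte markers were at 653.7 to 992.7 CPM in CMNKO mice against 261.3 to 411.3 CPM in LC mice. The 4 macrophage markers found were at 207.0 to 300.8 CPM in CMNKO mice against 178.7 to 196.2 CPM in LC mice. The smooth muscle and pericyte sum turned on Acta2, the only marker of these lists called by edgeR (log2 fold change 2.00, adjusted p = 0.0195). Without Acta2 the other 5 summed to 298.9, 262.8 and 294.3 CPM in CMNKO mice and 273.1, 190.8 and 173.8 CPM in LC mice, with LC 15 among the CMNKO mice. Besides Acta2, DESeq2 called Tnnt2 lower in CMNKO mice (adjusted p = 0.00541). It called the endothelial Cdh5, Kdr and Vwf (DESeq2 adjusted p = 0.0241, 0.0283 and 0.0438) and the fibroblast Col3a1 (0.0147) higher. The 6 fibroblast markers summed to 612.8 to 1010.4 CPM in CMNKO mice and 525.8 to 658.6 CPM in LC mice, with overlap. White adipocyte markers were near absent, with 40, 22 and 2 counts in CMNKO mice and 1, 0 and 0 counts in LC mice over 4 genes. The part of these differences in the results that follow was not tested, and in bulk tissue fewer cells of a type and less RNA per cell cannot be told apart.

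No member passed the threshold in either direction (0 of 84 at an adjusted p under 0.05, edgeR), where 0.606% of all genes tested passed. Among the members, 28 had an unadjusted p under 0.05, all with a lower level in CMNKO mice, against 8.8% of all genes tested in that direction and 10.1% in the other. DESeq2 called 3 members lower in CMNKO mice, Cox8b (adjusted p = 0.0277), Sdhb (adjusted p = 0.0309) and Ndufb2 (adjusted p = 0.0484), where it called 1.22% of all genes lower, and limma-voom called 0, where it called 0.721% of all genes, with 33 members at an unadjusted p under 0.05 (20.1% of all genes). Fold changes were small and mostly of 1 sign. Of the 84 members, 75 had a log2 fold change below 0, where 49.8% of all genes tested did. The median over the members was -0.26 (a change of -16.4%), and the median over all genes tested was 0.0012. In 43 members every CMNKO mouse lay below every LC mouse, against 12.3% of all genes, and in 0 members every CMNKO mouse lay above every LC mouse, against 11.2% of all genes.

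As a share of all nuclear-encoded counts, the 84 members together took 6.86%, 6.60% and 6.82% in CMNKO 16, 17 and 18, against 7.28%, 7.58% and 8.03% in LC 15, 25 and 26 (6.76 ± 0.14% and 7.63 ± 0.38%, SD, n = 3 each). The 2 groups did not overlap on this scale, with LC 15 the closest to the CMNKO mice. As a share of all counts, with the mitochondrially encoded transcripts included, the values were 4.94%, 4.82% and 5.03% in CMNKO mice and 5.37%, 4.84% and 5.39% in LC mice, and LC 25 lay among the CMNKO mice.

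**Figure D1:**
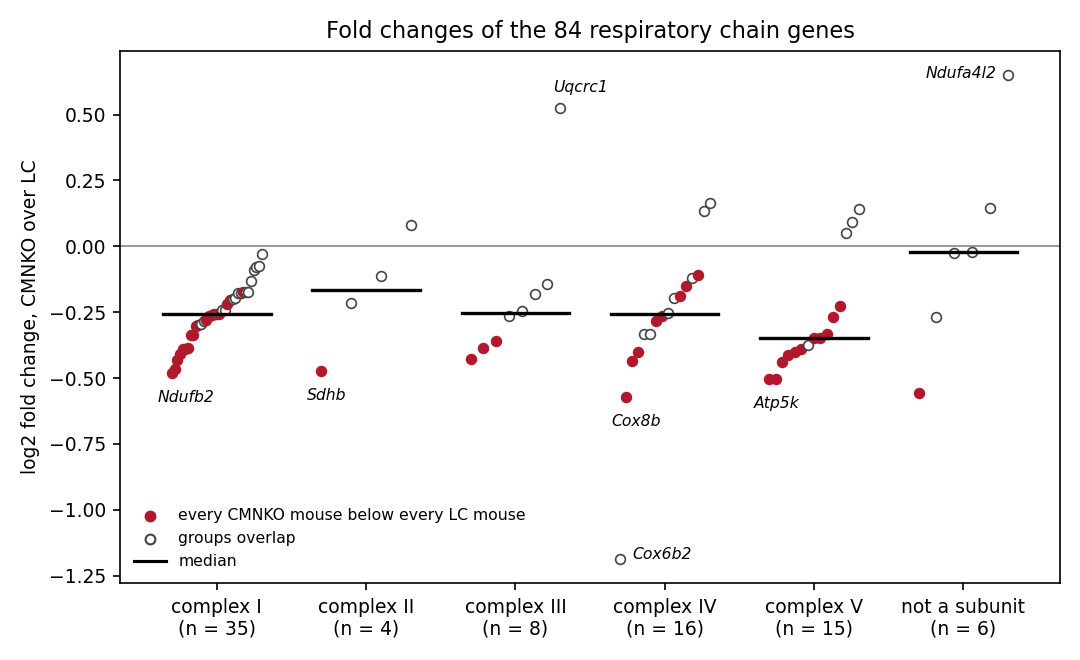
Log2 fold change of each of the 84 members, CMNKO over LC (edgeR), by complex, with the median of each complex as a line. Filled points are the 43 members in which every CMNKO mouse lay below every LC mouse, and most points of complexes I to V sit between 0 and -0.5 while Uqcrc1 and Ndufa4l2 lie above 0.5.

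All 35 subunits of complex I had a log2 fold change below 0 (49.8% of all genes tested), with a range of -0.48 to -0.03 and a median of -0.26. Of these, 19 had every CMNKO mouse below every LC mouse (12.3% of all genes tested). Summed over the 35 subunits, CMNKO mice had 12275, 11519 and 12244 CPM, against 13397, 13573 and 15663 CPM in LC mice, without overlap.

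Ndufb2, an accessory subunit of the membrane arm, was at 173.4, 180.4 and 185.1 CPM in CMNKO 16, 17 and 18, against 227.7, 240.7 and 283.2 CPM in LC 15, 25 and 26. The CMNKO mice lay close together and below all LC mice, of which LC 26 was the highest (log2 fold change -0.48 ± 0.13, SE, adjusted p = 0.104, edgeR). Ndufb10, another membrane arm subunit, was at 539.2, 530.0 and 595.0 CPM in CMNKO mice, against 720.5, 684.6 and 806.7 CPM in LC mice (log2 fold change -0.41, edgeR adjusted p = 0.141). Ndufa3, also accessory, was at 296.5, 270.8 and 276.4 CPM in CMNKO mice, against 341.6, 352.5 and 442.2 CPM in LC mice (log2 fold change -0.43, edgeR adjusted p = 0.147). Neither gene overlapped between genotypes, and LC 26 was again the highest mouse in each. Ndufb9, the complex I transcript with the highest level per kb of transcript (1127 CPM per kb in LC mice), was separated too, at 710.7, 649.8 and 628.4 CPM in CMNKO mice against 716.0, 749.3 and 915.4 CPM in LC mice, but CMNKO 16 and LC 15 differed by little (log2 fold change -0.26, edgeR adjusted p = 0.324). At the other end stood Ndufa8, at 313.6, 334.0 and 352.1 CPM in CMNKO mice and 373.9, 292.3 and 353.8 CPM in LC mice, with overlap (log2 fold change -0.03; named after its values were seen).

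Complex II, succinate dehydrogenase, is encoded wholly in the nucleus and also works in the citric acid cycle, and its 4 subunits had fold changes of unlike size. Sdhb, the iron-sulfur subunit, was at 854.8, 730.0 and 780.1 CPM in CMNKO mice, against 1046, 1099 and 1138 CPM in LC mice. LC mice lay in a narrow band well above all CMNKO mice (log2 fold change -0.47 ± 0.13, SE, adjusted p = 0.104, edgeR). Sdha, the flavoprotein that oxidizes succinate, was at 1262, 1261 and 1545 CPM in CMNKO mice and 1613, 1466 and 1323 CPM in LC mice (log2 fold change -0.11). The membrane anchor Sdhd was at 514.0, 494.1 and 456.9 CPM in CMNKO mice and 511.3, 549.1 and 639.9 CPM in LC mice (log2 fold change -0.22), and the other anchor Sdhc had a log2 fold change of 0.08 (named after its values were seen). Genotypes overlapped for these 3 subunits, so Sdhb was the only separated member of its complex (12.3% of all genes tested were separated in that direction). Its promoter window is given because Sdhb had among the smallest p-values of the members. The sequence is that of RefSeq on GRCm38.p6 (chr4:140961021-140961320, plus strand), 5′ to 3′ along the gene, from 250 bases before to 50 bases after the start of the transcript, with the 3 matches to the SP1 motif GGGCGG, all on the opposite strand, in capitals.
Sdhb: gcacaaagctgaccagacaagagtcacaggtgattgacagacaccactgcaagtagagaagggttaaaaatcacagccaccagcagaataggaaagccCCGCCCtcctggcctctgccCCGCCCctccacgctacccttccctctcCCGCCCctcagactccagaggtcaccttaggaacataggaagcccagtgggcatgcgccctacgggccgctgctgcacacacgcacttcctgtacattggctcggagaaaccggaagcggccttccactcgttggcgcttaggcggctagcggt

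Complex III had 8 members and a median of -0.25. Of the 8, 7 had a log2 fold change below 0 (49.8% of all genes tested), 3 of them separated (12.3% of all genes tested). Uqcr10, a small accessory subunit, was at 330.5, 308.0 and 303.5 CPM in CMNKO mice, against 377.3, 403.8 and 487.4 CPM in LC mice (log2 fold change -0.43, edgeR adjusted p = 0.143). Uqcr11, also small and accessory, was at 414.5, 334.7 and 360.1 CPM in CMNKO mice, against 424.6, 447.1 and 579.4 CPM in LC mice (log2 fold change -0.39, edgeR adjusted p = 0.214). Both were separated, Uqcr11 by only the narrow step between CMNKO 16 and LC 15. Uqcrq, the complex III member with the highest level per kb (1743 CPM per kb in LC mice), was at 661.8, 545.0 and 557.8 CPM in CMNKO mice and 623.8, 671.1 and 822.7 CPM in LC mice, with overlap (log2 fold change -0.26).

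The pair of core proteins, Uqcrc1 and Uqcrc2, which sit side by side on the matrix face of complex III, had fold changes of opposite sign. Uqcrc2 was at 970.7, 942.9 and 958.8 CPM in CMNKO mice, against 1116, 1279 and 1289 CPM in LC mice, separated (log2 fold change -0.36 ± 0.13, SE, adjusted p = 0.168, edgeR). Uqcrc1 (named after its values were seen) was at 866.1, 996.7 and 1181 CPM in CMNKO mice, against 1037, 524.3 and 551.9 CPM in LC mice. LC 15 lay among the CMNKO mice, and LC 25 and LC 26 were far below all others (log2 fold change 0.53 ± 0.24, SE, adjusted p = 0.268, edgeR). The ratio of Uqcrc1 to Uqcrc2 counts was 0.892, 1.06 and 1.23 in CMNKO 16, 17 and 18, against 0.930 in LC 15, 0.410 in LC 25 and 0.428 in LC 26. With the library series as a term in the fit, the log2 fold change of Uqcrc1 was -0.03, and without LC 15, where genotype and library series coincide, it was 0.91 (adjusted p = 0.00194, edgeR). The Uqcrc1 promoter window (RefSeq, GRCm38.p6, chr9:108936398-108936697, plus strand, cut as for Sdhb) is shown as that of the subunit that differed most from its partner, with the NRF1 motif that it holds just after the start in capitals.
Uqcrc1: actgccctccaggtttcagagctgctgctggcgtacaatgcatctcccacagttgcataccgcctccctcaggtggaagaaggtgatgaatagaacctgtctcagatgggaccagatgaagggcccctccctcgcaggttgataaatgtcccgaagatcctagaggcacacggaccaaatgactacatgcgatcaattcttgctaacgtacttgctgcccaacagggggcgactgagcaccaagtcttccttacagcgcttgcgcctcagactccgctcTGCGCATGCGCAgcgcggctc

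**Figure D2:**
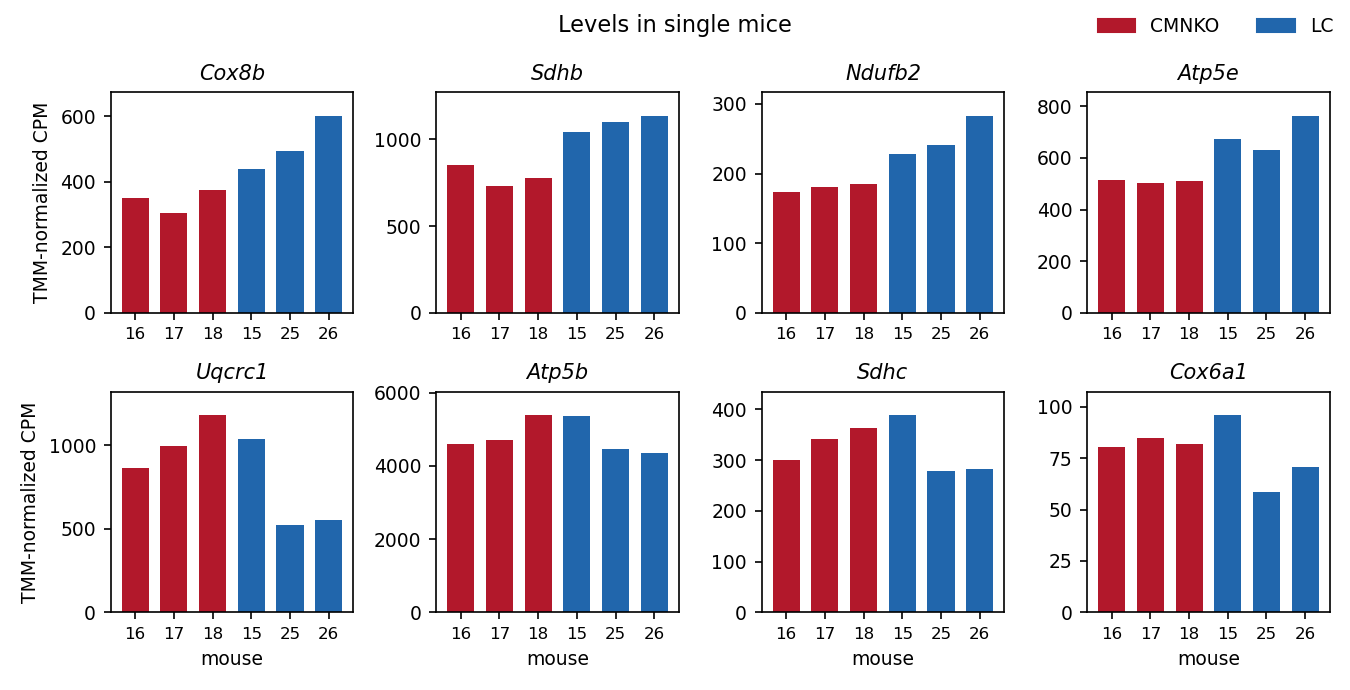
TMM-normalized CPM of 8 members in single mice, CMNKO 16, 17 and 18 in red and LC 15, 25 and 26 in blue, with each vertical axis starting at 0. In the upper row every CMNKO mouse lies below every LC mouse, and in the lower row LC 25 and LC 26 are the lowest mice while LC 15 is among or above the CMNKO mice.

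Complex IV, cytochrome c oxidase, had 16 nuclear-encoded members and a median of -0.26. Of the 16, 14 had a log2 fold change below 0 (49.8% of all genes tested), and 8 were separated with lower levels in CMNKO mice (12.3%). Its muscle isoforms are Cox6a2, Cox7a1 and Cox8b, of which Cox7a1 and Cox6a2 were the highest of all 84 members per kb of transcript, at 3197 and 3180 CPM per kb in LC mice. Cox8b, the muscle isoform of subunit VIII, was at 351.9, 304.1 and 376.3 CPM in CMNKO mice, against 440.0, 493.3 and 602.1 CPM in LC mice. This was the lowest log2 fold change of any member above a few counts (-0.57 ± 0.15, SE, a change of -32.8%, adjusted p = 0.104, edgeR), with no overlap and LC 15 the nearest to the CMNKO mice. It was -0.35 with a term for the library series and -0.31 with the trend of fold change on transcript length removed (edgeR adjusted p = 0.679 and 0.221). Cox6a2, the muscle isoform of subunit VIa, was at 1773, 1485 and 1537 CPM in CMNKO mice, against 1878, 2222 and 2387 CPM in LC mice. CMNKO 16 and LC 15 lay near each other, though the genotypes did not overlap (log2 fold change -0.44 ± 0.14, SE, adjusted p = 0.157, edgeR). Cox7a1, the muscle isoform of subunit VIIa, was at 1261, 1054 and 1157 CPM in CMNKO mice and 1155, 1208 and 1406 CPM in LC mice. Its genotypes overlapped (log2 fold change -0.12 ± 0.14, SE, adjusted p = 0.652, edgeR), and the fold changes of the 3 muscle isoforms were not tested against each other.

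The ubiquitous partners were much lower per kb, except Cox4i1. Cox8a was at 138.3, 138.9 and 131.2 CPM in CMNKO mice, against 143.8, 144.3 and 164.7 CPM in LC mice (log2 fold change -0.15). Cox7a2 was at 339.5, 330.6 and 309.1 CPM in CMNKO mice, against 351.8, 379.2 and 444.1 CPM in LC mice (log2 fold change -0.26). Both were separated, each by a small step to LC 15. Cox6a1 was at 80.7, 84.8 and 81.9 CPM in CMNKO mice and 95.9, 58.4 and 70.8 CPM in LC mice, with LC 15 the highest and LC 25 and LC 26 the lowest of the 6 mice (log2 fold change 0.14). Cox4i1, the common subunit IV, was at 1333, 1351 and 1527 CPM in CMNKO mice and 1595, 1532 and 1667 CPM in LC mice, separated by a narrow step between CMNKO 18 and LC 25 (log2 fold change -0.19), and its lung-type isoform Cox4i2 was near the floor of the complex, at 7.8, 6.9 and 7.9 CPM in CMNKO mice and 7.8, 6.9 and 5.5 CPM in LC mice, with overlap.

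Isoform use was compared within each mouse, as the ratio of counts per kb, in 4 pairs. Cox8b to Cox8a was 3.89, 3.34 and 4.38 in CMNKO 16, 17 and 18, against 4.67, 5.22 and 5.59 in LC 15, 25 and 26, a difference in mean log2 ratio of -0.42 (CMNKO minus LC). The genotypes did not overlap, and the exact two-sided permutation test over mice gave p = 0.1, the smallest that 3 against 3 allows. Cox6a2 to Cox6a1 was 18.4, 14.7 and 15.8 in CMNKO mice, against 16.4, 32.0 and 28.3 in LC mice, a difference of -0.60 (exact p = 0.2), but LC 15 lay among the CMNKO mice, and against LC 15 alone the difference was -0.02. Cox7a1 to Cox7a2 was 6.23, 5.35 and 6.27 in CMNKO mice and 5.50, 5.34 and 5.31 in LC mice, a difference of 0.14 (exact p = 0.2). Cox4i2 to Cox4i1 was 0.0060, 0.0052 and 0.0053 in CMNKO mice, against 0.0050, 0.0046 and 0.0034 in LC mice, a difference of 0.36 (exact p = 0.1) that rests on few Cox4i2 counts, 70, 49 and 63 in CMNKO mice and 50, 43 and 42 in LC mice. After adjustment over the 4 pairs all p-values were 0.2, so none passed the threshold. Of the 3 pairs with a muscle isoform, only Cox8b to Cox8a was lower in every CMNKO mouse than in every LC mouse. Against LC 15 alone its difference was -0.28. The Cox4i2 to Cox4i1 ratio was higher in every CMNKO mouse than in every LC mouse.

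**Figure D3:**
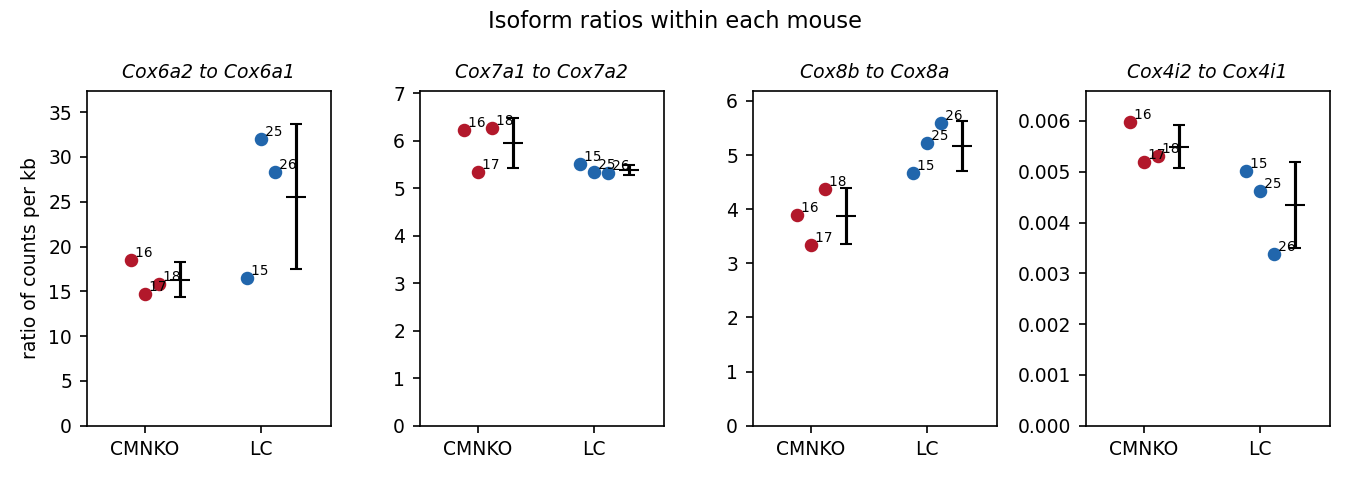
Ratio of counts per kb of transcript between 2 isoforms in single mice, CMNKO left and LC right, with mouse numbers beside the points and the mean ± SD of 3 mice as a bar. The Cox8b to Cox8a ratio is lower in all CMNKO mice (3.34 to 4.38) than in all LC mice (4.67 to 5.59), and in the Cox6a2 to Cox6a1 panel LC 15 (16.4) sits with the CMNKO mice.

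The promoter windows of the Cox8 pair (RefSeq, GRCm38.p6, cut as above) are shown because their transcripts are alternative forms of 1 subunit. That of Cox8b (chr7:140900397-140900696, minus strand) holds a TATA box (TATAAA) just after the listed start and no match to the other motifs searched, and that of Cox8a (chr19:7217567-7217866, minus strand) has no TATA box and 2 matches to the ETS motif CCGGAAGT on the opposite strand. The matches are in capitals.
Cox8b: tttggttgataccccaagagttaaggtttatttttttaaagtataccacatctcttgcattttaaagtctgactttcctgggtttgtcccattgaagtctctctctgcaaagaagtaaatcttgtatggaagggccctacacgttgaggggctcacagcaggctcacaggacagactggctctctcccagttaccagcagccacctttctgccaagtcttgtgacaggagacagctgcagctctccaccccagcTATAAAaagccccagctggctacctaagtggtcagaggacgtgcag
Cox8a: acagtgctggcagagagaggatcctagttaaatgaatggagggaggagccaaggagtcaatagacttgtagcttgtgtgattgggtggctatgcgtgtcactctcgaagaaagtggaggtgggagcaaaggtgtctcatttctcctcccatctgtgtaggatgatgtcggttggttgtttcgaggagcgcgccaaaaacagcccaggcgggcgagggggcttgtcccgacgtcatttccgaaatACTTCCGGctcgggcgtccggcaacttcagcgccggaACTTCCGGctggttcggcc

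Of the 84 members, 68 had a promoter window in the RefSeq table, which was searched beside the windows of 27025 genes, 1 window a gene, all of the same length. The NRF1 motif, bound by a regulator of respiratory genes, was in 6 windows (8.82%, against 1.31% of all windows), in Uqcrc1, Sdhd, Ndufa6, Ndufa11, Ndufb4 and Atp5g2. The YY1 motif AAGATGGCG was in 7 windows (10.3%, against 1.49% of all windows), and the ERR motif TCAAGGTCA of the estrogen-related receptors in 2, Atp5g3 and Sdhd (2.94%, against 0.407% of all windows). The ETS motif CCGGAAGT was in 5 windows (7.35%, against 4% of all windows) and the SP1 motif GGGCGG in 27 (39.7%, against 35.9% of all windows). TATAAA, searched on the strand of the gene, was in 3 windows, those of Cox8b, Ndufa3 and Ndufs7 (4.41%, against 8.88% of all windows), and the MEF2 motif was in 0 (against 3.26% of all windows). All motifs but the TATA box were searched on both strands, and a match is only a match of letters. Members without a window, Cox6a2 and Uqcrc2 among them, were not searched, and sites outside the windows would not show.

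Other complex IV subunits were mostly small accessory proteins. Cox7b, an X-linked accessory subunit, was at 737.5, 650.7 and 655.4 CPM in CMNKO mice, against 748.9, 899.4 and 1048 CPM in LC mice (log2 fold change -0.40, edgeR adjusted p = 0.191). The step between CMNKO 16 and LC 15 was narrow, and LC 25 and LC 26 were well above. Ndufa4 was at 977.9, 862.4 and 864.8 CPM in CMNKO mice and 952.6, 1123 and 1334 CPM in LC mice, with overlap of CMNKO 16 and LC 15 (log2 fold change -0.33), and Cox6b1 was at 825.6, 703.8 and 697.6 CPM in CMNKO mice and 799.8, 819.6 and 1034 CPM in LC mice (log2 fold change -0.25). Cox6b2, the testis isoform, had the lowest fitted log2 fold change (-1.19 ± 0.57, SE) but rested on 3, 2 and 12 counts in CMNKO mice and 8, 12 and 13 counts in LC mice, which overlapped.

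Complex V had the lowest median, -0.35 over 15 members. Of the 15, 12 were below 0 (49.8% of all genes tested), and 11 were separated with lower levels in CMNKO mice (12.3%). The 3 members with the smallest p-values (edgeR) are described here. Atp5c1 (log2 fold change -0.39), Atp5o (-0.35) and Atp5f1 (-0.27) were among the other separated members (named after their values were seen). Atp5e, the epsilon subunit of the rotor stalk, was at 512.8, 503.6 and 511.9 CPM in CMNKO mice, against 675.0, 631.0 and 764.0 CPM in LC mice. The CMNKO mice lay close together and all LC mice were well above them (log2 fold change -0.44 ± 0.12, SE, adjusted p = 0.120, edgeR). Atp5k, subunit e of the membrane part, was at 548.8, 446.4 and 481.1 CPM in CMNKO mice, against 633.3, 642.4 and 819.6 CPM in LC mice (log2 fold change -0.51, edgeR adjusted p = 0.124). Atp5j, a coupling factor of the side stalk, was at 606.6, 553.2 and 591.7 CPM in CMNKO mice, against 720.8, 751.8 and 842.3 CPM in LC mice (log2 fold change -0.40, edgeR adjusted p = 0.143). Both were separated with every LC mouse well above.

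The alpha and beta subunits of the catalytic head had fold changes near 0. Atp5b, the beta subunit that makes ATP and the member of complex V with the highest level per kb (2467 CPM per kb in LC mice), was at 4591, 4706 and 5381 CPM in CMNKO mice and 5368, 4449 and 4362 CPM in LC mice (log2 fold change 0.05). The alpha subunit Atp5a1 was at 3638, 3837 and 4374 CPM in CMNKO mice and 4257, 3349 and 3507 CPM in LC mice (log2 fold change 0.09), and Atp5d, the delta subunit of the rotor stalk, had a log2 fold change of 0.14 (both named after their values were seen). In these 3 genes LC 15 was near the top and LC 25 and LC 26 were the lowest mice, and with the library series as a term their log2 fold changes were -0.13, -0.11 and -0.16. The c-ring, through which protons pass, is encoded by Atp5g1, Atp5g2 and Atp5g3 with the same mature protein. Atp5g3 gave 80.5% to 82.4% of the counts per kb of the 3 genes in CMNKO mice and 79.4% to 81.0% in LC mice, and Atp5g2 gave 0.269% to 0.456% in CMNKO mice and 0.404% to 0.501% in LC mice. These shares depend on near-identical copies of Atp5g1 and Atp5g2, and with the counts of the copies added Atp5g3 gave 62.6% to 64.0% in CMNKO mice and 61.1% to 62.9% in LC mice, and Atp5g1 gave 35.5% to 37.0% in CMNKO mice and 36.6% to 38.4% in LC mice. Their log2 fold changes were -0.23 for Atp5g3, -0.35 for Atp5g1 and -0.51 for Atp5g2, the last on 23 to 50 counts a library. With copies added they were -0.23 for Atp5g3, -0.31 for Atp5g1 and -0.35 for Atp5g2.

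**Figure D4:**
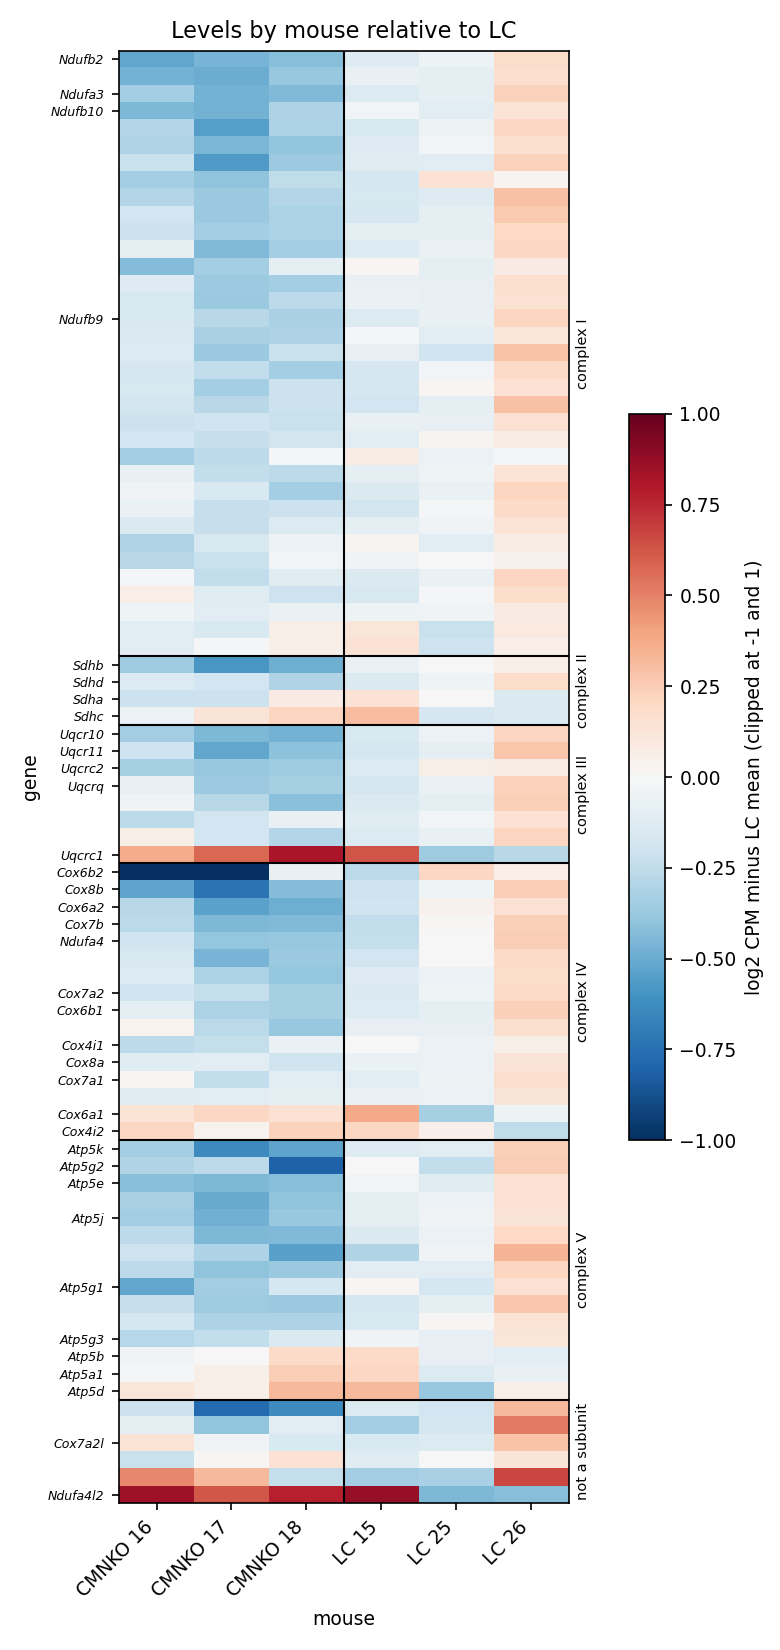
Log2 CPM of each of the 84 members (rows, by complex) in each mouse (columns, CMNKO left of the line and LC right), minus the mean of the 3 LC mice, with names beside some of the rows, in blue where lower and red where higher. The median over members is -0.19, -0.31 and -0.30 in CMNKO 16, 17 and 18, and -0.12, -0.07 and 0.16 in LC 15, 25 and 26, and the rows of Uqcrc1 and Ndufa4l2 show LC 15 with the CMNKO mice.

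The 6 genes matched by name only had a median log2 fold change of -0.02. Ndufa4l2, a paralog of Ndufa4 that hypoxia induces, was at 13.3, 11.3 and 12.7 CPM in CMNKO mice, against 13.6 CPM in LC 15, 5.2 CPM in LC 25 and 5.2 CPM in LC 26. LC 15 was the highest of all mice (log2 fold change 0.65 ± 0.32, SE, adjusted p = 0.296, edgeR), and with the library series as a term the value was -0.12. Cox7a2l, which helps complexes III and IV join into supercomplexes, was at 247.2, 219.5 and 202.6 CPM in CMNKO mice and 202.5, 204.8 and 274.0 CPM in LC mice (log2 fold change -0.03).

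LC 25 and LC 26, which have the later library numbers, were set beside the 4 other libraries. In 45 of the 84 members (53.6%, against 20.7% of all genes tested) LC 25 and LC 26 lay above the 4 other libraries, and in 7 members (8.33%, against 22.9% of all genes tested) they lay below them. These 7 were Uqcrc1, Atp5a1, Atp5b, Atp5d, Sdhc, Cox6a1 and Ndufa4l2. With the library series as a term, which leaves LC 15 as the only LC mouse beside the CMNKO mice, the median over members was -0.15, with 75 of 84 below 0 (48.8% of all genes tested). In that fit 0 members were called (edgeR, against 0.169% of all genes), and 4 had an unadjusted p under 0.05 with a lower level in CMNKO mice (4.06% of all genes). The complex medians were then -0.16 for complex I, -0.23 for complex II, -0.09 for complex III, -0.12 for complex IV and -0.23 for complex V. Without LC 15, 27 members were called lower and 2 higher (Uqcrc1 and Ndufa4l2), where 7.67% of all genes were called lower and 11.8% higher, and genotype and library series cannot be told apart in that fit. Without LC 26 the median over members was -0.17.

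Members are short transcripts, with a median length of 729.5 nt against 2749 nt over all genes tested, and across the 12753 genes with a length the fold change went with length (Spearman rho = 0.24, and 0.35 over the 84 members, across genes that are not independent). With that trend removed the median over members was -0.13, that over all genes -0.03, and 65 of 84 members were below 0, against 54.2% of all genes. The fold change came closer to 0 by over 1.5 times in 46 of 84 members and changed sign in 10, and with the series term it came closer to 0 by over 1.5 times in 42 members and changed sign in 16. With the length trend removed it was -0.26 for Ndufb2, -0.21 for Atp5e, -0.25 for Atp5k, -0.28 for Cox6a2 and -0.40 for Sdhb. The medians were then -0.14 for complex I, -0.17 for complex II, -0.10 for complex III, -0.09 for complex IV and -0.22 for complex V. Across the same 12753 genes the fold change also went with GC content (Spearman rho = 0.30, and 0.03 over the 84 members). With the GC trend removed the median over members was -0.30, that over all genes -0.02, and 0 members were called (edgeR). The log2 fold change was then -0.61 for Ndufb2, -0.57 for Atp5e, -0.62 for Atp5k, -0.53 for Cox6a2 and -0.61 for Sdhb. With library totals in place of TMM factors the median over members was -0.14 and that over all genes 0.12, so that the distance between them was -0.26, as with TMM, and 66 of 84 members were below 0.

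**Figure D5:**
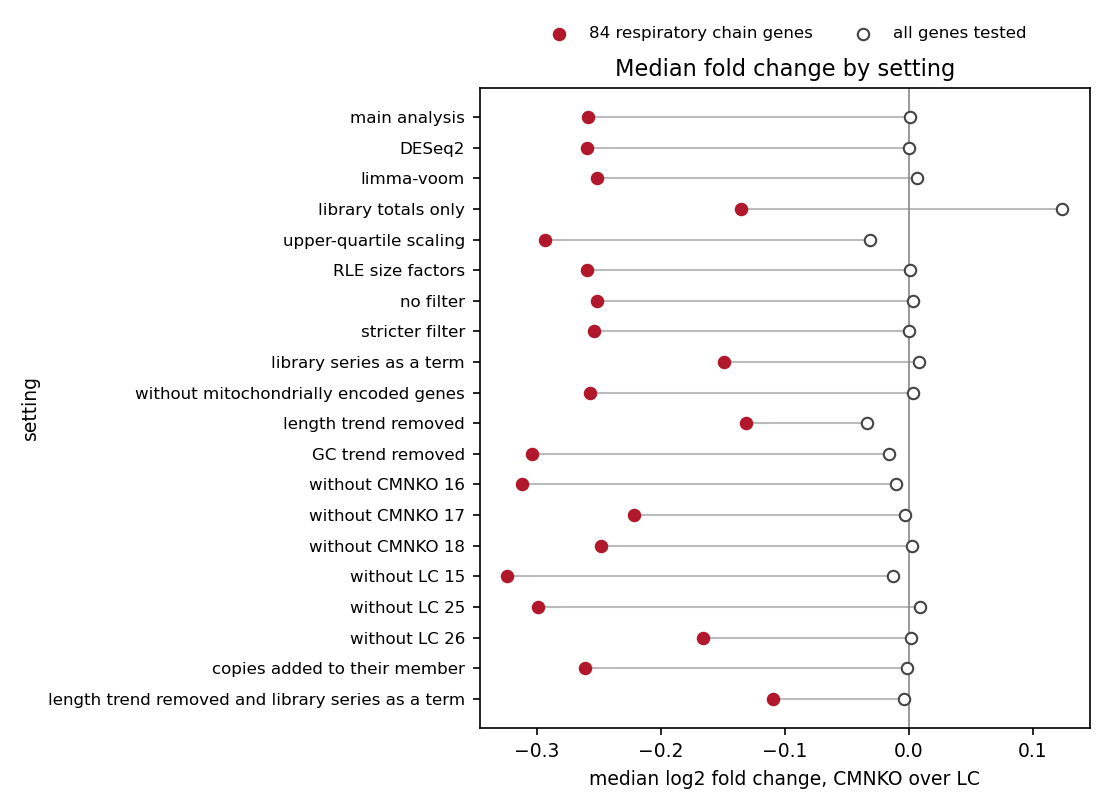
Median log2 fold change (CMNKO over LC) of the 84 members (filled) and of all genes tested (open) under each setting of the analysis, with a line joining the 2. The member median lies below the median of all genes in every setting shown, with a difference of -0.26 in the main analysis and a smaller one with the length trend removed or the library series as a term.

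Genes outside the members filled in the picture of the pathway. Of 47 assembly factors listed, 41 were tested, 0 were called (edgeR), 28 of 41 were below 0 (49.8% of all genes tested) and 12 of 41 were separated with lower levels in CMNKO mice (12.3% of all genes tested), with a median log2 fold change of -0.12. The copper chaperone Cox17 had a log2 fold change of -0.43 (edgeR adjusted p = 0.153). Of 7 carriers and subunits that the symbols missed, Atpif1 was the only 1 called. Atpif1, the inhibitory factor that stops complex V from running backwards, was at 97.4, 92.2 and 92.9 CPM in CMNKO mice, against 133.4, 176.3 and 199.7 CPM in LC mice. It fell in CMNKO mice with no overlap (log2 fold change -0.85 ± 0.15, SE, adjusted p = 0.0373, edgeR), and a term for the library series gave -0.50. The adjusted p of Atpif1 ranged from 0.00029 to 0.368 over all settings. Cytochrome c (Cycs) had a log2 fold change of -0.18 and Cyc1, the cytochrome subunit of complex III, of 0.09, both with overlap.

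All 13 mitochondrially encoded subunits had a log2 fold change below 0 (49.8% of all genes tested), with a median of -0.36. In 3 of the 13 every CMNKO mouse lay below every LC mouse (12.3% of all genes tested), and the other 10 overlapped between genotypes. COX1, the catalytic subunit of complex IV, was at 110223, 108074 and 107314 CPM in CMNKO mice, against 106081 CPM in LC 15, 157496 CPM in LC 25 and 148650 CPM in LC 26. LC 15 was the lowest mouse, and with the library series as a term the median of the 13 was 0.02. ATP8 alone was called (log2 fold change -0.72 ± 0.14, SE, adjusted p = 0.0444, edgeR), and it overlaps ATP6 in mitochondrial DNA, so the counts of the 2 genes may be mixed. Its adjusted p ranged from 0.000895 to 0.571 over all settings. Of 10 regulators of the chain, 0 were called (edgeR), and the median was -0.0026. Ppargc1a, the coactivator of mitochondrial biogenesis, was at 72.1, 79.1 and 82.2 CPM in CMNKO mice, against 99.2, 94.6 and 174.5 CPM in LC mice. It was separated, with LC 26 far above the rest (log2 fold change -0.66 ± 0.21, SE, adjusted p = 0.150, edgeR), whereas Esrra, Nrf1 and Tfam had log2 fold changes of 0.06, -0.0007 and -0.10 and overlapped.

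Levels per kb in LC mice had a median of 425.8 CPM per kb in complex I, 483.2 in complex II, 958.6 in complex III, 1246 in complex IV and 1312 in complex V, and in the 3 largest complexes some members lay far below their partners. Ndufb4 was at 23.6, Atp5l at 109.3 and Cox7c at 229.7 CPM per kb (named after their values were seen). In 15 members the table also holds rows of near-identical processed copies, 23 rows in all, among which the authors' counting could have split reads. The levels of these 15, with Atp5l and Cox7c among them, are therefore uncertain. Ndufb4 was not among the 15. Copies without a row of their own would not show in this count, and the low level of Ndufb4 was not tested further. Copies held 73.7% of the combined counts of Atp5l, 60.3% of Atp5g1, 38.6% of Atp5g2, 31.5% of Cox7c and 21.4% of Uqcrb, and under 10% in the other 10. With copies added to their member, 0 members were called (edgeR, where 83 of 13023 genes were called) and the median over members was -0.26.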

How the data were processed

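Per the study's methods, total RNA of left ventricles kept in RNAlater was isolated with TRIzol, and TruSeq libraries were sequenced on an Illumina HiSeq instrument. Clean reads were mapped by the authors to a mouse assembly (the submitters' notes name mm8). The deposited table gives raw counts for each gene symbol in each mouse. It also gives the authors' group means, log2 fold changes and FDR values, which were not used here, nor was the separate list of their called genes. The aligner and the counting step, with its use of strand, are not named. In R 4.3.3, edgeR 4.0.16 was run on the counts of all 6 libraries (filterByExpr, TMM, quasi-likelihood test of genotype), with Benjamini-Hochberg adjustment over all genes tested and a threshold of 0.05. CPM values used TMM-scaled totals. Code was tested on simulated data.

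Alternatives were DESeq2 1.42.0, limma-voom (limma 3.58.1), other scalings and filters (the stricter filter asked for 50 counts in 3 libraries), the library series as a term, length or GC trends removed, mitochondrially encoded rows left out, and each mouse left out. Adding copies to their member and the length trend with the series term were chosen after seeing the data. So were the marker sum without Acta2 and the ratio of Uqcrc1 to Uqcrc2. Isoform ratios were compared by exact permutation of the log2 ratio of counts, with nothing added to the counts. Lengths came from GENCODE on GRCm38, whose build differs from that of the counts, so the coordinates printed are those of the RefSeq windows alone. Named genes were those past the threshold, isoform sets, the 3 smallest p-values and the highest level per kb in each complex. Members described by their values outside this rule, and genes of the other lists, were named after their values were seen. Mitochondrially encoded genes, written without a prefix in the table, were matched by their names (ND1, COX1 and so on). The members and lists were chosen with earlier results of these data known. Nothing says that the mice were from separate litters, so p-values measure the spread between these 6 mice.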

Additional observations from a re-analysis of the deposited data

How the results depend on the processing

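The count of 0 members called became 3 with DESeq2 and ranged from 0 to 29 when each mouse was left out, with 29 without LC 15, and stayed at 0 under the other settings. The median over members stayed below 0 in every setting. It moved from -0.26 to -0.14 with library totals, -0.13 with the length trend removed and -0.11 with that trend and the library series term together. With the GC trend removed it moved the other way, to -0.30, with 77 of 84 members below 0, and with upper-quartile scaling to -0.29. When each mouse was left out it ranged from -0.32 to -0.17. Of 32 named genes, these uncalled log2 fold changes changed sign. A term for the library series gave -0.13 for Atp5b, -0.051 for Cox4i2, -0.22 for Cox6a1, 0.0033 for Cox7a1, 0.14 for Cox7a2l and -0.12 for Ndufa4l2. With library totals they were 0.0056 for Cox7a1, 0.10 for Cox7a2l and 0.0027 for Sdha. With the length trend removed they were 0.12 for Cox7a1, 0.058 for Cox7a2l and 0.042 for Cox8a, and with the GC trend removed -0.015 for Atp5b and -0.030 for Cox6a1. With the length trend and the series term together they were -0.14 for Atp5b, -0.14 for Cox6a1, 0.092 for Cox7a1, 0.17 for Cox7a2l, 0.0040 for Ndufa4, -0.079 for Ndufa4l2 and 0.0019 for Uqcrq. When each mouse was left out, Atp5b ranged from -0.024 to 0.15, Cox6a1 from -0.016 to 0.35 and Cox7a2l from -0.11 to 0.13. The cause of these changes was not tested. No paired analysis was possible because the CMNKO and LC mice share no numbers. Depth limits Cox6b2, Cox4i2, Atp5g2 and Atp5l-ps1, which rest on few counts.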
